A study of Mus musculus with 4 samples.

Results

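The LH barcode is the 15-base tag of the virus that was injected into the lateral hypothalamus (LH), 1 of 5 tags in a MERGE-seq study of the mouse ventromedial prefrontal cortex (vmPFC). It was followed through all 20047 annotated cells, by the column of the deposited tables that holds its count of unique molecular identifiers (UMIs, random tags that mark single cDNA molecules) in each cell. Male C57BL/6 mice were injected on 1 side at 8 weeks of age with rAAV2-retro viruses that express EGFP and a barcode from a CAG promoter, with a different barcode for the agranular insular cortex (AI), dorsomedial striatum (DMS), mediodorsal thalamus (MD), basolateral amygdala (BLA) and LH. Prelimbic and infralimbic cortex was taken 6 weeks later and made into single cells. Mice 1, 2 and 3 were processed without sorting and gave 1 library each, and 1 FAC-sorted library, called the sorted library below, was pooled from 3 other mice after selection for EGFP. All mice carried all 5 viruses, the titres and volumes differed between targets, and no library from mice without virus was used here. The barcode tables held 8042, 7439 and 7239 cells of mice 1, 2 and 3 and 2068 of the sorted library, of which 6614, 5966, 5775 and 1692 had a cell type in the authors' annotation. Among them were 8805 excitatory neurons, 8210 with a subtype, and 9822 non-neuronal cells. The labels of cell types were not checked against marker genes, because gene expression was not analysed here.

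The retrograde virus enters axon terminals at the injection site and travels back to the cell body, so a barcode read from a vmPFC neuron is taken to mark a place to which that neuron sends an axon. LH controls feeding, arousal and motivated behaviour, and prefrontal axons reach it from neurons of the deep layers. Layer 5 holds neurons that project below the cortex, and layer 6 holds the corticothalamic neurons, of which Syt6 is a known marker. The subtypes L5-Bcl6 and L6-Syt6, 1 of each layer, are described in full below.

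The 5 designed barcodes are shown because every count rests on telling them apart. LH is written in capitals, and in the other 4 the capitals mark the bases that differ from LH at the same position, read 5′ to 3′.
LH: TATTCGGAGGACGAC
BLA: AaGAcgCCgTCGCaA
DMS: GaAGGCACAgacTTT
MD: GTtGGCTGCAaTCCA
AI: CTGCACCGACGcATT
LH differed from BLA at 10 positions, from DMS at 11, from MD at 13 and from AI at 14, while the authors allowed 2 mismatches when they assigned a read. Of the bases of LH, 8 of 15 (53.3%) were G or C.

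The LH barcode was read deeply in every library. Unsorted mice 1, 2 and 3 had 3135025, 4023171 and 3576838 LH reads, and the sorted library had 4426415. LH made up 15.3%, 13.1%, 10.9% and 14.6% of all projectome reads in the same order. Without mismatch were 97.8%, 99.05%, 98.9% and 98.1% of the LH reads. All 45 possible single-base variants of LH were seen, with 197134 reads over the 4 libraries. The 3 with the most reads are shown with the changed base in capitals, named by the base of LH, its position from 1 at the 5′ end and the base read.
A2C: tCttcggaggacgac
G6T: tattcTgaggacgac
T3A: taAtcggaggacgac
A2C had 14501 reads, G6T had 13863 and T3A had 13255, together 21.1% of the reads with a single changed base, and the other 42 variants had between 347 and 11795. Their order was not the same in every library. A2C had 6129, 1339 and 2616 reads in mice 1, 2 and 3 and 4417 in the sorted library, and T3A had 3296, 1027, 1370 and 7562. The 7562 reads of T3A in the sorted library came from 1658 UMIs, whereas the 6129 reads of A2C in mouse 1 came from 5166. UMIs with at least 10 reads that all carried 1 variant were rare, with 5, 7, 6 and 7 in the 4 libraries.

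A recount of UMIs from the deposited reads gave the deposited LH count in all 24788 cells, when a lone LH UMI in a cell was set to 0 as the tables do. Because of this, 1670, 1462 and 1438 cells of mice 1, 2 and 3 and 35 cells of the sorted library are listed at 0 although they had 1 LH UMI. The tables hold 116318, 121121, 118704 and 111568 LH UMIs. Before that step there were 117988, 122583, 120142 and 111603, and most of them rested on few reads. UMIs with 1 read were 58.5%, 55.4%, 54.4% and 51.6% of the LH UMIs but held only 2.20%, 1.69%, 1.83% and 1.30% of the LH reads. UMIs with at least 100 reads were 10.1%, 9.84%, 9.25% and 7.10% and held 83.7%, 89.9%, 90.02% and 92.5%. The reads therefore sat in a small set of UMIs that were read many times, and below, a UMI with at least 10 reads is called well supported. That limit was set after the read numbers were seen, and it does not mean the same in all libraries, since matched reads per cell numbered 2312, 3737, 4163 and 12652.

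LH counts were higher in excitatory neurons than in non-neuronal cells in 4 of 4 libraries. The mean was 15.5, 19.1 and 17.4 LH UMIs per excitatory neuron in mice 1, 2 and 3, and 0.667, 1.06 and 0.797 per non-neuronal cell. In the sorted library it was 47.0 and 5.25. The difference had the same direction in every library, and the mean difference over the 4 libraries was 22.8 UMIs. The exact two-sided sign-flip test over libraries gave p = 0.13 (1/8), the smallest it allows with 4 libraries. Inhibitory neurons, which mostly stay within the cortex, had 2.99 ± 0.525 LH UMIs per cell in the unsorted mice (SD, n = 3). The 8 inhibitory neurons of the sorted library had a mean of 33.5 and a median of 13.5, and 1 of them had 176. Per 10000 transcriptome UMIs, the unsorted mice had 8.45 ± 0.962 LH UMIs in excitatory, 2.13 ± 0.323 in inhibitory and 1.69 ± 0.423 in non-neuronal cells. Excitatory neurons yielded more transcriptome UMIs, with medians of 20760, 21580 and 22426 in the unsorted mice, than non-neuronal cells, with 3988, 4074 and 4277.

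The glial and vascular types, which send no axon to LH, give 1 view of the background of the LH barcode. The paper used non-neuronal cells and sorted cells without EGFP RNA as negative controls, and took the higher limit for each barcode. Its second control was not analysed here. In the unsorted mice, mean LH UMIs per cell were 0.681 ± 0.172 for astrocytes, 0.688 ± 0.183 for activated microglia, 0.753 ± 0.206 for microglia, 0.840 ± 0.199 for endothelial cells, 0.896 ± 0.227 for oligodendrocyte precursors and 0.998 ± 0.242 for oligodendrocytes (SD, n = 3). Neighbours in this order differed by less than their spread. The median was 0 in each of these types. An LH UMI was present in 53.3%, 64.9% and 57.2% of the non-neuronal cells of the unsorted mice, against 20.9%, 31.3% and 25.1% listed above 0 in the tables. The 73 non-neuronal cells of the sorted library had a median of 4 LH UMIs, and 94.5% had at least 1. The 99th percentile over all 9822 non-neuronal cells was 7 LH UMIs, and the highest count was 177. The count that at most 1 in 1000 of them exceeded was 40, below the authors' limit of 103 LH UMIs. Well-supported LH UMIs were rare there, at 0.0371, 0.0471 and 0.0347 per non-neuronal cell of mice 1, 2 and 3 and 0.0959 in the sorted library. For comparison, excitatory neurons of the subtype L6-Syt6 had 3.16, 3.58, 3.34 and 7.56.

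A count above 103 LH UMIs made a neuron LH-barcoded, the limit at which the deposited joined matrix keeps a count, and the calls in the annotation were the same for all 8210 neurons. A barcode above its own limit is called valid. Above it were 68 of 2612 excitatory neurons of mouse 1 (2.60%; 95% exact binomial interval, 2.03% to 3.29%), 62 of 2283 of mouse 2 (2.72%; 2.09% to 3.47%) and 58 of 2299 of mouse 3 (2.52%; 1.92% to 3.25%). In the sorted library 153 of 1611 were above it (9.50%; 8.11% to 11.03%). The 3 mice gave 2.61% ± 0.0969 (SD, n = 3), and the sorted value lay above all of them. The sort selected for EGFP, which the same viruses express, and it was 1 library, so the difference is given without a p-value. The order was not kept under every way of counting. With reads thinned to 2312 matched reads per cell in every library and the limit kept, the shares were 2.60%, 1.40% and 1.09% for mice 1, 2 and 3 and 1.18% in the sorted library, so the difference changed sign from 6.88 to -0.52 percentage points. This made mean reads per cell equal, not reads per neuron, and the sorted library held 1611 excitatory neurons among 1692 annotated cells. With only UMIs that had at least 10 reads and limits that at most 1 in 1000 non-neuronal cells exceeded, the shares were 9.61%, 11.3% and 8.92% in the mice and 15.8% in the sorted library, which was then higher by 5.82 points. The share itself moved with the limit. With all UMIs and the limit that at most 1 in 1000 non-neuronal cells exceeded, 8.38%, 13.8% and 12.2% of the neurons of mice 1, 2 and 3 and 36.1% of the sorted neurons were above it, a difference of 24.7 points. At 0.5 times the limit the mice had 6.05%, 8.98% and 7.87% and the sorted library had 27.6%. With UMIs of at least 2 reads and the limit kept, 5, 3 and 3 neurons of the mice and 25 sorted neurons remained above it, a difference of 1.40 points. Intervals cover counting error only.

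Outside excitatory neurons, 5 annotated cells were above the limit. They were 1 endothelial cell of mouse 2 with 177 LH UMIs, 2 oligodendrocytes of mice 1 and 3 with 130 each, and 2 inhibitory neurons, with 126 LH UMIs in mouse 3 and 176 in the sorted library. The 3 non-neuronal cells had 26013 to 38279 transcriptome UMIs, against medians of 3988 to 4277 for such cells in the unsorted mice. The 2 inhibitory neurons had 42615 and 46031, against inhibitory medians of 13964 in mouse 3 and 20832 in the sorted library. No astrocyte, oligodendrocyte precursor, microglial or activated microglial cell was above it. For microglia of the unsorted mice this was 0 of 2894, which allows a share of up to 0.104%, and for astrocytes 0 of 495, which allows up to 0.606%.

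By raw count, LH was not highest only in the subtypes with many LH-barcoded neurons. The median LH count of L5-Bcl6 was 21, 27 and 16.5 UMIs in mice 1, 2 and 3 and 74 in the sorted library. That of L6-Syt6 was 5, 7 and 6, and 36 in the sorted library. L5-Bcl6 was higher in 4 of 4 libraries, by 21.1 UMIs on average (exact sign-flip p = 0.13, two-sided). Several subtypes with almost no LH-barcoded neurons had higher medians than L6-Syt6 in the unsorted mice. L5-S100b had 9.5, 17 and 19, L2/3-Rorb had 11, 13 and 19, and L6-Npy had 10, 13 and 13. L2/3-Calb1 had 4, 6 and 5 and L5-Htr2c had 2, 4 and 3, which were below those of L6-Syt6. In the sorted library all 3 of L5-S100b (33), L2/3-Rorb (32) and L6-Npy (22) were below L6-Syt6 (36).

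As a share of all barcode UMIs of the cells, LH separated the subtypes in another way. It was 34.2% ± 6.89 of the barcode UMIs of L5-Bcl6 and 20.8% ± 1.86 of those of L6-Syt6 in the unsorted mice (SD, n = 3). The next was L5-Htr2c with 16.9% ± 2.95, from a median of only 16.5 to 29 barcode UMIs per neuron. L2/3-Calb1 had 13.1% ± 1.498, L6-Npy 12.2% ± 1.04, L2/3-Rorb 11.8% ± 0.496 and L5-S100b 11.4% ± 0.292. Non-neuronal cells had 10.9% ± 1.78, with 12.4%, 11.3% and 8.95% in mice 1, 2 and 3. L2/3-Calb1 was above them in each of the mice, with 14.4%, 13.4% and 11.4%. L6-Npy, L2/3-Rorb and L5-S100b were above them in mice 2 and 3 and below them in mouse 1. In the sorted library LH was 31.5% for L5-Bcl6, 21.6% for L6-Syt6, 12.0% to 18.0% for the other 5 subtypes and 13.7% for the 73 non-neuronal cells.

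Well-supported UMIs gave the same order at the top. L5-Bcl6 neurons had on average 18.5, 15.3 and 12.4 well-supported LH UMIs in mice 1, 2 and 3 and 19.4 in the sorted library, and 64.4%, 60.0%, 46.7% and 86.7% had at least 1. L6-Syt6 neurons had at least 1 in 21.5%, 22.7%, 20.2% and 56.3%. In the unsorted mice the other 5 subtypes had at least 1 in 4.07% ± 0.558 (L2/3-Rorb) to 10.3% ± 2.09 (L5-Htr2c) of their neurons, and 1.38% ± 0.278 of the non-neuronal cells did (SD, n = 3). Of the sorted neurons, 28.9% of L2/3-Calb1, 31.05% of L6-Npy, 39.4% of L2/3-Rorb and 45.7% of L5-S100b and 2 of 4 L5-Htr2c had at least 1. Per neuron, L5-S100b had 0.286 ± 0.136 well-supported LH UMIs and L6-Syt6 had 3.36 ± 0.211, although the median count of all LH UMIs was higher in L5-S100b in these mice. The UMIs behind the 2 medians differed. In L5-S100b, 74.7% ± 2.40 of the LH UMIs were also seen with another barcode in that cell, and LH had the most reads in 2.04% ± 0.450 of these. In L6-Syt6 the values were 41.3% ± 2.47 and 42.9% ± 2.05, and in L5-Bcl6 they were 36.6% ± 3.68 and 71.1% ± 6.39.

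The LH counts of neurons below the limit differed with the other barcodes. Neurons of all subtypes with no valid barcode had a median of 5, 6 and 5 LH UMIs in mice 1, 2 and 3 and 19 in the sorted library. Where only MD was valid, the medians were 31, 34.5, 32 and 41, and where only DMS was valid, 28, 30, 26 and 35. With 2 or more valid barcodes other than LH they were 35.5, 46, 43.5 and 61. In that group 2.17%, 28.6%, 25.0% and 71.3% of the neurons were above 0.5 times the LH limit. LH was 11.1%, 12.2%, 11.1% and 11.6% of the barcode UMIs there. In the non-neuronal cells of the same libraries it was 12.4%, 11.3%, 8.95% and 13.7%. What part of these counts came from axons in LH was not tested.

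LH-barcoded neurons were found in 6 of 7 subtypes, and 320 of the 334 with a subtype were L6-Syt6 (255) or L5-Bcl6 (65). Of the L5-Bcl6 neurons, 24 of 90 (26.7%; 17.9% to 37.0%), 10 of 60 (16.7%; 8.29% to 28.5%) and 9 of 60 (15%; 7.10% to 26.6%) were above the limit in mice 1, 2 and 3, and 22 of 60 in the sorted library (36.7%; 24.6% to 50.1%). Of the L6-Syt6 neurons, 42 of 1426, 44 of 1354, 47 of 1300 and 122 of 739 were. L5-Bcl6 had the higher share in 4 of 4 libraries, by a factor of 9.05, 5.13 and 4.15 for mice 1, 2 and 3 and 2.22 in the sorted library. The difference averaged 17.2 percentage points (exact sign-flip p = 0.13, two-sided, the smallest possible). Without the sorted library it was 16.2. Other limits and ways of counting all UMIs gave from 2.93 points with UMIs of at least 2 reads to 27.2 with limits at 0.5 times, and thinned reads left 3.33% and 2.30% in the sorted library, but L5-Bcl6 stayed higher in 4 of 4 libraries in each. L6-Syt6 has many more cells, so the larger number of LH-barcoded neurons came from the subtype with the smaller share. L5-Bcl6 was 36.4%, 17.2% and 15.8% of the LH-barcoded neurons of mice 1, 2 and 3 and 14.4% in the sorted library.

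The other 14 LH-barcoded neurons were spread over 4 subtypes, and 9 of them were in the sorted library. L6-Npy had 3 in mouse 2 with 115, 122 and 176 LH UMIs and 2 in the sorted library with 111 and 137. L5-S100b had 1 in mouse 3 with 134 and 3 in the sorted library with 110, 129 and 155. L2/3-Rorb had 3, all in the sorted library, with 104, 105 and 106, and L2/3-Calb1 had 2, with 108 and 130. All 9 of the sorted library had 4 or 5 valid barcodes, and LH was a median of 12.4% of their barcode UMIs, against 41.7% in the LH-barcoded L6-Syt6 neurons of that library. L2/3-Rorb had 0 of 373 LH-barcoded neurons in the unsorted mice, which allows a share of up to 0.804%. L5-Htr2c had 0 of 320 over all libraries, which allows up to 0.938%.

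The spread of counts around the limit of 103 differed between libraries. Pooled over the 4 libraries, 81 of 270 L5-Bcl6 neurons had 0 to 10 LH UMIs, 45 had 11 to 25, 27 had 26 to 50, 24 had 51 to 75, and 28 had 76 to 103. Above it, 37 had 104 to 150, 18 had 151 to 200 and 10 had more. The lowest counts above the limit were 104 UMIs in both subtypes. In mouse 1, 34 of 90 L5-Bcl6 neurons had 0 to 10, 12 had 11 to 25, 5 had 26 to 50, 6 had 51 to 75, 9 had 76 to 103 and 17 had 104 to 150. The sorted library had none of its 60 at 0 to 10. By well-supported LH UMIs, 96 of the 270 had 0, 35 had 1 to 4, 13 had 5 to 9, 35 had 10 to 19, 47 had 20 to 39 and 44 had 40 or more. For L6-Syt6, 2723 of 4819 neurons had 0 to 10 LH UMIs, 144 had 76 to 103, 142 had 104 to 150, 66 had 151 to 200 and 47 had more. Within 1.5 times the limit were 61.5% of the LH-barcoded L5-Bcl6 and 59.2% of the LH-barcoded L6-Syt6 neurons, pooled over libraries. By library the 2 subtypes were less alike. For L5-Bcl6 it was 79.2%, 60.0% and 33.3% in mice 1, 2 and 3 and 54.5% in the sorted library. For L6-Syt6 it was 73.8%, 79.5%, 70.2% and 42.6%.

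Neurons below the limit also held well-supported LH UMIs. At least 10 of them were found in 20 of 66, 16 of 50 and 11 of 51 such L5-Bcl6 neurons of mice 1, 2 and 3 and in 14 of 38 of the sorted library. Over all libraries these were 61 of 205 (29.8%), and 396 of 4564 L6-Syt6 neurons below the limit (8.68%) had as many. Conversely, all 65 LH-barcoded L5-Bcl6 neurons and all but 8 of the 255 LH-barcoded L6-Syt6 neurons had at least 10. When only well-supported UMIs were counted and each barcode's limit was set at the count that at most 1 in 1000 of the non-neuronal cells exceeded (6 LH UMIs), 50.0%, 46.7% and 35.0% of the L5-Bcl6 neurons of mice 1, 2 and 3 and 65.0% of those of the sorted library were above the limit. For L6-Syt6 these shares were 13.3%, 14.8%, 12.5% and 27.2%. L5-Bcl6 was higher in 4 of 4 libraries, by 32.2 percentage points (exact sign-flip p = 0.13).

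The strength of the LH barcode, taken as the count of LH-barcoded neurons, did not differ in 1 direction between L5-Bcl6 and L6-Syt6 at the limit of 103 UMIs. The median was 135.5 LH UMIs in both in mouse 1, 150.5 in L5-Bcl6 and 131 in L6-Syt6 in mouse 2, and 169 and 136 in mouse 3. In the sorted library it was 147 and 162.5. The log2 ratios were 0.00, 0.20, 0.31 and -0.14, with a mean of 0.09 ± 0.20 (SD, n = 4 libraries; exact sign-flip p = 0.5). With 1 library left out the mean ran from 0.019 without mouse 3 to 0.17 without the sorted library. At lower limits L5-Bcl6 was higher in 4 of 4 libraries. The mean log2 ratio was 0.49 with limits that at most 1 in 1000 non-neuronal cells exceeded and 0.31 with limits at 0.5 times (exact sign-flip p = 0.13 in both). Other alternatives gave no single direction. At 1.5 times the limits the mean was 0.046 over 3 libraries, with -0.076 in the sorted library. With exact matches it was 0.10, with -0.011 in mouse 1 and -0.092 in the sorted library. With shared UMIs counted only for the best-read barcode it was 0.079, with -0.14 in the sorted library. Thinned reads gave 0.11 over the 3 mice, with 0.00 in mouse 1. Among annotated neurons, L5-Bcl6 reached 357 UMIs and L6-Syt6 498, both in the sorted library, while none of the unsorted mice had more than 256. The authors had left out the cells with the most barcode UMIs, the top 5% of each library, so strength was also limited from above. Over all cells, annotated or not, the highest LH counts were 4042, 1837 and 3177 in mice 1, 2 and 3 and 3926 in the sorted library. Per 10000 transcriptome UMIs the medians were 68.9 and 56.8, 60.1 and 55.9, and 69.1 and 51.8 in mice 1, 2 and 3 and 50.97 and 41.6 in the sorted library. On that scale L5-Bcl6 was higher in 4 of 4 libraries, by 0.27 on the log2 scale (exact p = 0.13). LH-barcoded L6-Syt6 neurons of the sorted library had a median of 39350.5 transcriptome UMIs and LH-barcoded L5-Bcl6 neurons 31130.5. Well-supported LH UMIs per LH-barcoded neuron averaged 50.7, 55.4 and 55.0 for L5-Bcl6 and 43.7, 42.2 and 42.8 for L6-Syt6 in the unsorted mice. They averaged 39.5 and 33.5 in the sorted library, again higher for L5-Bcl6. With the limits set on well-supported UMIs, the medians were 31 and 16.5, 27 and 19, and 25 and 20 such LH UMIs in mice 1, 2 and 3 and 24 and 20 in the sorted library. L5-Bcl6 was then higher in 4 of 4 libraries, by 0.50 on the log2 scale (exact p = 0.13).

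LH was the only valid barcode in 176 of the 334 LH-barcoded neurons, that is, AI was at most 28, DMS at most 101, MD at most 114 and BLA at most 35 UMIs. In mice 1, 2 and 3 these LH-only neurons were 59 of 66 (89.4%; 79.4% to 95.6%), 38 of 58 (65.5%; 51.9% to 77.5%) and 34 of 57 (59.6%; 45.8% to 72.4%), a mean of 71.5% ± 15.8 (SD, n = 3). In the sorted library they were 45 of 153 (29.4%; 22.3% to 37.3%), below each of the mice, a difference given without a p-value. At equal, thinned read numbers per cell it was 89.4%, 84.4%, 79.2% and 68.4%. When each UMI seen with several barcodes was counted only for its best-read barcode, it was 98.3%, 92.0%, 94.0% and 69.4%. With well-supported UMIs only and limits taken from the non-neuronal cells, it was 81.7%, 75.6%, 78.6% and 68.9%. Lower limits for all barcodes gave lower shares. With all UMIs and limits that at most 1 in 1000 non-neuronal cells exceeded, LH-only neurons were 57.2%, 37.1% and 30.0% of the neurons above that LH limit in the mice and 60 of 574 (10.5%) in the sorted library. At 0.5 times the limits they were 39.4%, 22.3% and 17.9% in the mice and 1 of 441 (0.227%) in the sorted library. The sorted library was lowest in these 5 alternatives, while its own share ran from 0.227% to 69.4%. All these shares leave out the cells with the most barcode UMIs, the top 5% of each library. Of those cells, 202, 221 and 233 were above the LH limit in mice 1, 2 and 3 and 103 in the sorted library.

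LH-only neurons were not free of the other barcodes. Their median counts over the 4 libraries were 134 UMIs for LH, 71 for DMS, 45 for MD, 18 for AI and 9.5 for BLA. LH was a median of 53.7%, 49.6% and 49.5% of the barcode UMIs in mice 1, 2 and 3 and 44.7% in the sorted library. At least 1 other barcode was above 0.5 times its limit in 164 of 176, most often DMS, with 156, and AI, with 129. The well-supported UMIs gave a different picture. The median LH-only neuron had 39 of them for LH, 6 for DMS and 0 each for AI, MD and BLA. AI had none in 172 of 176 and BLA in 172 of 176. DMS had at least 1 in 94.3% of the LH-only neurons, a level also seen in neurons with AI (92.7%), BLA (93.3%) or MD (91.8%) as the only valid barcode. Pooled over libraries, MD had at least 1 in 49.4%, against 22.8% of the AI-only, 35.0% of the BLA-only and 56.1% of the DMS-only neurons. This order was not kept by library. LH-only neurons had at least 1 in 40.7%, 28.9% and 47.1% in mice 1, 2 and 3 and 80.0% in the sorted library. DMS-only neurons did in 33.1%, 36.8%, 39.3% and 88.9%.

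The LH-only share of the subtypes differed mostly in mouse 3. It was 87.5% for L5-Bcl6 and 90.5% for L6-Syt6 in mouse 1, 60.0% and 65.9% in mouse 2, 22.2% and 68.1% in mouse 3, and 27.3% and 32.0% in the sorted library. L5-Bcl6 was lower in 4 of 4, with a mean difference of -14.9 percentage points (exact sign-flip p = 0.13), and mouse 3 had 9 L5-Bcl6 neurons in this comparison. Without mouse 3 the mean difference was -4.53 points. When a shared UMI counted only for its best-read barcode it was -0.43 points, and L5-Bcl6 was then lower in 2 of 4 libraries. It was -16.7 points with well-supported UMIs, -19.6 with thinned reads and -15.7 with limits at 0.5 times, and lower in 4 of 4 libraries in each (exact sign-flip p = 0.13). Some of these library values rested on very few neurons. At 0.5 times the limits the sorted library had 0% and 0.38%, from 1 LH-only neuron among 441. With thinned reads, only 3.33% of the 60 sorted L5-Bcl6 neurons were above the LH limit. With all UMIs and limits that at most 1 in 1000 non-neuronal cells exceeded, the mean difference was -4.03 points (exact sign-flip p = 0.50). The sorted library turned, with 24.4% for L5-Bcl6 and 14.1% for L6-Syt6. At 1.5 times the limits the sorted library also turned, with 80.0% and 68.6%, and mouse 1 had 100% in both subtypes. With UMIs of at least 2 reads the difference in the sorted library was 7.58 points, and L5-Bcl6 was lower in mouse 2 alone. The direction was thus not kept in every library when the counting changed.

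Which other barcodes the LH-barcoded neurons carried differed between the 2 subtypes. How often all neurons of each subtype were above the DMS or MD limit was not counted here. The differences are therefore not shown to be particular to LH-barcoded neurons. Over all subtypes, 192 of 2440, 208 of 2146 and 245 of 2119 neurons of mice 1, 2 and 3 were above the DMS but not the LH limit. In the sorted library 472 of 1505 were. Above the MD but not the LH limit were 68, 107, 81 and 217 neurons. L6-Syt6 made up 277 of the 281 neurons with MD as the only valid barcode, and 74 of the 594 with DMS. The DMS barcode, which stands for an axon to the striatum, was also valid in 8.33%, 30.0% and 77.8% of the LH-barcoded L5-Bcl6 neurons of mice 1, 2 and 3 and in 72.7% of those of the sorted library. In L6-Syt6 it was valid in 0% (0 of 42, which allows up to 7.14%), 9.09%, 10.6% and 63.1%. L5-Bcl6 was higher in 4 of 4 libraries, by 26.5 percentage points, which fell to 13.0 without mouse 3. The MD barcode, which stands for an axon to the thalamus, went the other way. It was valid in 4.17%, 0% and 0% of the LH-barcoded L5-Bcl6 neurons of mice 1, 2 and 3 and in 13.6% in the sorted library, and in 7.14%, 15.9%, 23.4% and 44.3% of the L6-Syt6 neurons. The 0 of 10 and 0 of 9 L5-Bcl6 neurons of mice 2 and 3 allow up to 30.0% and 33.3%. L5-Bcl6 was lower in 4 of 4, with a mean difference of -18.2 percentage points. Both comparisons had an exact sign-flip p = 0.13 and 0.13 after Benjamini-Hochberg adjustment over the 2. Counting well-supported UMIs only, with limits of 16 for DMS and 26 for MD, DMS was valid in 20.0%, 21.4%, 47.6% and 28.2% of the L5-Bcl6 and in 3.16%, 3.48%, 3.68% and 21.4% of the L6-Syt6 neurons above the LH limit. MD was valid in 4.44%, 3.57%, 4.76% and 5.13% of the L5-Bcl6 and 11.1%, 15.9%, 12.3% and 17.4% of the L6-Syt6 neurons. The direction was the same in 4 of 4 libraries for both. When a shared UMI counted only for its best-read barcode, the differences shrank to 9.46 percentage points for DMS, with 0% in both subtypes in mouse 1, and to -7.46 for MD. DMS was then valid in 12.5% of the L5-Bcl6 neurons of mouse 3 and in 2.94% of the L6-Syt6 neurons of the sorted library. Other limits or ways of counting turned the direction or left no difference in some libraries. With UMIs of at least 2 reads, DMS was valid in 33.3% of the L5-Bcl6 and 40.9% of the L6-Syt6 neurons of the sorted library. Only 5.00% of its 60 L5-Bcl6 and 2.98% of its 739 L6-Syt6 neurons were then above the LH limit. At 1.5 times the limits, MD was valid in 0% of both subtypes in each of the mice. Above that LH limit were only 5.56% of 90, 6.67% of 60 and 10.0% of 60 L5-Bcl6 neurons of mice 1, 2 and 3. With limits that at most 1 in 1000 non-neuronal cells exceeded, DMS was valid in 73.2% of the L5-Bcl6 and 74.8% of the L6-Syt6 neurons of the sorted library, and with limits at 0.5 times MD was more frequent in L5-Bcl6 in mice 1 and 3, at 35.9% and 32.1%, and 47.1% and 38.8%.

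LH-barcoded neurons took 10 of the 16 patterns that are possible with the other 4 barcodes, and 9 of these had at least 10 neurons. After LH alone came LH with DMS and LH with AI, DMS and MD, with 35 neurons each. LH with AI and DMS had 22, and all 5 barcodes together had 20. LH with AI, LH with MD, LH with AI and MD, and LH with DMS and MD had 11 each, and the remaining pattern had 2. The sorted library held 28 of the 35 with DMS, 30 of the 35 with AI, DMS and MD, and all 20 with 5 barcodes. Cells with the most barcode UMIs, the top 5% of each library, had been left out by the authors and are in no pattern. Of these, 202, 221 and 233 cells of mice 1, 2 and 3 and 103 of the sorted library were above the LH limit. The neurons counted here numbered 66, 58, 57 and 153. The pattern with all 5 barcodes had a median of 930.5 barcode UMIs. What this cut did to the patterns was not tested. No LH-barcoded neuron of the unsorted mice carried a valid BLA barcode, 0 of 181, which allows a share of up to 1.66%. The paper describes neurons that project to BLA as rare. BLA was the only valid barcode in 17 of 2440, 13 of 2146 and 14 of 2119 neurons of mice 1, 2 and 3. The absence of BLA is therefore not shown to be particular to LH-barcoded neurons. L5-Bcl6 and L6-Syt6 were almost equal in number in the DMS pattern, with 17 and 18, whereas MD alone with LH had 1 and 10. These came from 65 L5-Bcl6 and 255 L6-Syt6 neurons that were LH-barcoded.

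Not every valid partner held a well-supported UMI. Of the 101 LH-barcoded neurons that were also above the AI limit, 94 had no AI UMI with at least 10 reads, and of the 22 above the BLA limit, 21 had no such BLA UMI. All 219 neurons with AI as the only valid barcode and all 60 with BLA as the only one had at least 1 well-supported UMI of that barcode. For DMS, the presence of a well-supported UMI did not tell such neurons apart. All 125 LH-barcoded neurons above the DMS limit had at least 1, but so did 95.2% of the 209 that were not above it, and the medians were 20 and 6 well-supported DMS UMIs. For MD, all 88 above the limit had at least 1 and 59.8% of the 246 others did, with medians of 36 and 2. How these AI and BLA counts arose was not tested.

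The LH counts of LH-only neurons and of those with other barcodes were compared within each library. The median was 136 and 129 LH UMIs in mouse 1, 128.5 and 150.5 in mouse 2, and 138.5 and 141 in mouse 3. It was 128 and 174 in the sorted library, where the difference was largest. The mean log2 ratio of LH-only to the others was -0.16 ± 0.23 (SD, n = 4 libraries; exact sign-flip p = 0.375). With 1 library left out it ran from -0.059 without the sorted library to -0.23 without mouse 1. With well-supported UMIs and limits taken from the non-neuronal cells it was -0.16, and LH-only neurons were higher in mouse 2 alone, by 0.46. Per 10000 transcriptome UMIs the ratio was -0.13, and LH-only neurons were lower in 4 of 4 libraries (exact sign-flip p = 0.13). At 0.5 times the limits LH-only neurons were lower in each of the mice, with medians of 70 against 118, 66 against 88 and 63 against 85 LH UMIs, a mean log2 ratio of -0.53 (exact sign-flip p = 0.25). The sorted library had 1 LH-only neuron at those limits and was not compared. With limits that at most 1 in 1000 non-neuronal cells exceeded, LH-only neurons were higher in mice 2 and 3 and lower in mouse 1 and the sorted library.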

How the data were processed

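The authors injected barcoded viruses, amplified the barcodes from the cDNA and assigned reads to the 5 barcodes with a modified deMULTIplex that allowed 2 mismatches. The deposited barcode tables hold their counts of UMIs per cell, not normalized, in which a lone LH UMI is listed at 0. From the joined matrix the authors left out cells whose total of barcode UMIs passed the 95th percentile, and they kept counts above a limit for each barcode, which was read from that matrix. By the paper's methods, each limit was the higher of 2 values near the 99.9th percentile. They came from non-neuronal cells and from sorted cells without EGFP RNA, and the latter were not analysed here. Cell types and subtypes come from the deposited annotation, which the authors built on Cell Ranger output and mm10. As far as their methods say, the authors treated doublets through upper limits on genes, transcriptome counts and barcode UMIs per cell. No doublet caller was run here, so remaining doublets among cells with counts of several barcodes or outside excitatory neurons were not tested for. Columns of series-wide tables that were not used number 32.

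For the recount, the deposited reads were compared with the barcodes base by base and collapsed to UMIs. The 3 unsorted mice are replicates, the FAC-sorted library has none, and cells were never used as replicates. Comparisons inside libraries used a two-sided exact sign-flip test of the 4 library values. Sorted and unsorted values were set side by side and their differences are given without p-values, since the sorted arm was 1 library selected for EGFP. Strength was compared where both groups had at least 5 LH-barcoded neurons. Intervals are 95% Clopper-Pearson intervals, and where no cell was found the share that 3 counts would give is the upper limit. The alternatives were other limits, UMIs with at least 2 or 10 reads, exact matches, shared UMIs counted only for the best-read barcode, thinned reads, scaling by transcriptome UMIs, subtyped neurons only and left-out libraries. Libraries shared 52 cell barcodes, of which 1 was an LH-barcoded neuron. All cell types and subtypes, patterns with at least 10 neurons and the 3 variants with the most reads were named. The barcode, the subtypes compared and these rules were chosen with earlier results of these data known. The code was tested on simulated data. Python 3.11.15, numpy 2.4.6, pandas 2.3.3, scipy 1.17.1 and pyarrow 21.0.0 were used.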

Additional observations from a re-analysis of the deposited data

Results flagged for a closer look

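Cells outside the annotation made up most of those above the LH limit. Of 1114 cells above 103 LH UMIs in the barcode tables, 768 had no cell type, and 759 of these belonged to the 1241 cells with the most barcode UMIs, the top 5% of each library, which the authors had left out. In these 1241 cells the median was 128 LH UMIs, and 61.2% were above the limit. They held 60.9%, 57.2% and 61.3% of all LH UMIs of mice 1, 2 and 3 and 28.7% of all LH UMIs of the sorted library. The highest LH count of any cell was 4042.

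Among the reads that match no barcode, 28667, 37102 and 32928 reads of mice 1, 2 and 3 and 40725 of the sorted library held the LH barcode from its second base on, shifted by 1 base. They were 0.914%, 0.922%, 0.921% and 0.920% of the number of LH reads. Of their UMIs, 95.3%, 94.98%, 94.6% and 94.4% had LH reads in the same cell as well, and 618, 664, 651 and 544 UMIs had none.

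The median LH count of L5-S100b was above that of L6-Syt6 by 4.5, 10 and 13 UMIs in mice 1, 2 and 3, and the difference was -3 UMIs in the sorted library. This difference between the groups was not tested.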

How the results depend on the processing

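Of 122 values under alternatives for 11 results, 111 kept their direction or stayed within 1 SD of the 3 mice, 9 moved further and 2 turned. Direction here is the sign of the mean over libraries, whatever its size. A difference in LH-only share that shrank from -14.9 to -0.43 points thus counted as kept. The mean LH-only share of the mice could not change when the sorted library was left out. The exact tests used could not pass 0.05 with 4 libraries. The share above the LH limit in the sorted library against the mice turned from 6.88 to -0.518 percentage points with thinned reads. The log2 ratio of LH-only to other LH-barcoded neurons turned from -0.16 to 0.031 with limits that at most 1 in 1000 non-neuronal cells exceeded (40 for LH), and the cause was not tested. The mean LH-only share of the mice was 71.5%. It was 41.4% with those limits, 26.5% with limits at 0.5 times, 94.3% at 1.5 times, 88.9% with UMIs of at least 2 reads and 94.8% with shared UMIs counted only for the best-read barcode, and 62.6% to 77.5% with a mouse left out. The count that at most 1 in 1000 non-neuronal cells exceeded was 40 LH UMIs over all libraries, 30, 41 and 31 for mice 1, 2 and 3, 19 for the 73 such cells of the sorted library, and 17 with UMIs of at least 2 reads. The added alternative with at least 10 reads was chosen after seeing the data. Sorted and unsorted libraries could not be paired with each other, because they share no replicate numbers. With UMIs of at least 2 reads only, the strength of L5-Bcl6 and L6-Syt6 could not be compared.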

Other observations

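Excitatory neurons without a subtype, 595 in all, had fewer transcriptome UMIs, with medians of 5017, 7018 and 3654 in mice 1, 2 and 3 and 4817 for sorted cells. The paper reports that excitatory cells of low quality or contaminated by non-neuronal types were removed before subtypes were assigned. Whether the 595 are those cells was not checked. They are included above in the shares of all excitatory neurons. The 595 held 7 LH-barcoded neurons (1.18%; 0.474% to 2.41%), none of them in the sorted library, where 0 of 106 allows a share of up to 2.83%.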
